A study of Homo sapiens with 34 samples.

Results

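NFE2L2 encodes NRF2, the transcription factor that switches on much of the antioxidant and detoxification programme of animal cells. Its mRNA and those of 8 of its targets were followed through a SLAM-seq pulse-chase in hTERT-RPE1 cells, a line of retinal pigment epithelial origin immortalised with telomerase. The 9 genes were NFE2L2, HMOX1, NQO1, GCLM, GCLC, TXNRD1, SRXN1, PIR and OSGIN1, of 19041 genes in all. They were taken by name, with no threshold on a measured value, but were chosen with earlier results of these data known. All reads in the 3′ UTR intervals named for each gene were summed. For 8 of the 9 the intervals carried that gene's name alone. The only interval of SRXN1 was named for SRXN1 together with AL121758.1, a read-through gene on the same strand, so reads of the pair cannot be told apart, and every value given for SRXN1 is that of the shared interval.

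The study asked whether mRNA turnover differs between large and small cells, which it made by inducing constructs for CCND1, the gene of cyclin D1. All cells carried lentiviral constructs and received 0.5 µg/mL doxycycline throughout. In the cells labelled knockdown the drug switched on an shRNA directed at the CCND1 3′ UTR. In those labelled overexpression it switched on that shRNA and, with it, a CCND1 copy the shRNA cannot target. On day 4 the cells were given 10 µM 4-thiouridine (s4U) for 24 h, with the medium exchanged every 3 h, and were then washed and chased in 1 mM uridine for up to 1440 min. The s4U built into RNA is read as C in place of T after alkylation, so a gene's T>C rate drops during the chase as copies made in the pulse decay. Unlabelled cells were given 10 µM uridine and no s4U, and were harvested at the 0 min time. There were 34 libraries, 17 per line, which form 2 time courses per line. The courses shared the unlabelled, 0, 180, 360, 720 and 1440 min samples, and other times between 10 and 90 min were present in some courses. By the study's account both lines were polyclonal for CCND1 expression. Whether each course was a culture of its own is not in the labels, so p-values measure only the spread between these courses.

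In unstressed cells KEAP1 holds NRF2 and hands it to a CUL3 and RBX1 ubiquitin ligase, so that NRF2 protein is destroyed almost as fast as it is made. Oxidants and electrophiles modify KEAP1, NRF2 protein accumulates, pairs with a small MAF protein (MAFF, MAFG or MAFK) and binds the antioxidant response element in its target genes. Control is largely at the level of NRF2 protein, which was not measured here, and mRNA of the targets is what these libraries show.

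The core of the antioxidant response element is usually written TGACNNNGC, and a related form is TGAGNNNGC. Both were sought on either strand in the RefSeq promoters (GRCh38.p14) of the genes, from 250 bases before to 50 bases after each listed start, to show which of the 9 carry these letters close to a start site. Of the 9 genes 8 had a promoter listed, with 10 windows between them, and HMOX1 was not listed. TGACNNNGC was found in 4 of the 10 windows, belonging to 3 genes (GCLM, TXNRD1 and PIR), and in 13.3% of all 35116 promoter windows. TGAGNNNGC was found in 5 of the 10 windows, belonging to 5 genes (GCLM, NFE2L2, TXNRD1, NQO1 and OSGIN1), and in 18.3% of all windows. The matches to the first form, and that of OSGIN1 to the second, are shown with 8 bases on either side and the core in capitals, each on the strand that carries the core.
GCLM, chr1:93909448-93909472, plus strand, core 34 bases before the start: gaagacaaTGACTAAGCagaaatcg
TXNRD1, upstream start, chr12:104215672-104215696, plus strand, core 99 bases before the start: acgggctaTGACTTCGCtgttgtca
TXNRD1, upstream start, chr12:104215763-104215787, minus strand, core 8 bases before the start: gtgggaacTGACGGAGCcgaaggac
TXNRD1, downstream start, chr12:104286922-104286946, minus strand, core 102 bases before the start: agtcagaaTGACAAAGCagaaatcc
PIR, chrX:15493291-15493315, plus strand, core 27 bases after the start: cctcaccgTGACTCAGCgcttcgcg
OSGIN1, chr16:83953133-83953157, minus strand, core 99 bases before the start: cataagcgTGAGTCAGCaggggccc
These windows are short, a match is a description of the letters, and elements further from the start were not sought.

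Libraries held 14712332 to 44480703 reads in 3′ UTR intervals. Each library correlated with the rest of its own line at r of 0.965 to 0.989 over 8397 genes, apart from 3 libraries, the unlabelled one of knockdown course 1 (0.879) and, in overexpression course 1, the unlabelled one (0.908) and the 720 min one (0.857). Reads in the 3′ UTR of CCND1 came to 81.8 to 199 CPM (reads scaled to library size) in the knockdown and 40.3 to 82.4 CPM in the overexpression libraries, and were higher in the line labelled knockdown (log2 difference 1.35 ± 0.13 SE, edgeR adjusted p = 1.5e-04). Both lines induce the shRNA against this UTR and there were no uninduced libraries here, so these reads check neither label, and knockdown and overexpression stand below for libraries so labelled. Of 6 retinal pigment epithelium markers only MITF exceeded 1.14 CPM in any library (34.4 to 110 CPM), while the mesenchymal VIM reached 5489 to 11447 CPM and the epithelial KRT18 217 to 731 CPM. The epithelial CDH1 and EPCAM were at most at 0.57 CPM. Of the blood and endothelial markers CD68 lay between 12.8 and 35.0 CPM and the other 6 were at most at 1.24 CPM. In bulk samples fewer cells of a type and less RNA per cell cannot be told apart.

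Nearly all reads of each gene fell in 1 of its 3′ UTR intervals (hg38). These were chr2:177230305-177230784 for NFE2L2, chr22:35393599-35394214 for HMOX1, chr16:69709401-69710975 for NQO1, chr1:93885205-93888989 for GCLM, chr6:53497341-53498755 for GCLC, chr12:104348353-104350305 for TXNRD1, chr20:646615-648855 for the SRXN1 interval, chrX:15384799-15385003 for PIR and chr16:83966008-83966332 for OSGIN1. Over all libraries the shallowest of the 9 was OSGIN1, with 0 to 487 reads per library, and the deepest TXNRD1, with 11017 to 32704. PIR had 112 to 1014 reads, GCLC 294 to 833, HMOX1 311 to 2129, SRXN1 1333 to 4429, NFE2L2 1696 to 3756, GCLM 2067 to 5167 and NQO1 6153 to 24960. Multimapped reads were under 1% for each of the 9. Each gene is read at its 3′ end in 3′ tag libraries, so CPM needs no length correction, but no test was made between genes.

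The first comparison asked whether the 9 mRNAs differed in abundance between the lines. HMOX1 was higher and PIR lower in the knockdown courses. The other 7 did not pass the test, and their log2 differences, knockdown over overexpression, ran from -0.33 (NQO1) to 0.33 (TXNRD1). Counts were summed per course over the 6 shared samples and tested 2 courses against 2 with edgeR's quasi-likelihood test, adjusted over 13166 genes by the Benjamini-Hochberg method at a threshold of 0.05. The 2 of 9 called (22.2%) stand beside 21.9% of all genes tested, so the 9 genes were called about as often as any gene. The median log2 difference was -0.070 for the 9 and -0.0075 for all genes.

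HMOX1 encodes haem oxygenase 1, which opens the haem ring to biliverdin, carbon monoxide and iron. Its level was 44.1 and 37.7 CPM in the knockdown courses and 23.3 and 18.9 CPM in the overexpression courses, a log2 difference of 0.95 ± 0.16 (SE, adjusted p = 0.0021). Over single libraries the lowest, median and highest values were 21.1, 45.3 and 76.0 CPM in the 17 knockdown libraries and 9.96, 19.1 and 78.2 CPM in the 17 overexpression libraries. Both knockdown libraries lay above both overexpression libraries at 0, 180, 360 and 1440 min. They overlapped at 720 min and without label, the samples that hold the 3 libraries set apart above. How many of all genes separate so often was not counted, so this order is a description. The unlabelled library of overexpression course 1 had 78.2 CPM against 15.7 CPM in course 2, and the unlabelled libraries alone gave a log2 difference of -0.18 (adjusted p = 0.99), opposite in sign. With the unlabelled and 720 min libraries left out of all courses the difference was 1.27 (adjusted p = 8.0e-05).

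PIR encodes pirin, an iron-binding nuclear protein of the cupin family. Its level was 9.59 and 9.36 CPM in the knockdown courses and 19.9 and 22.6 CPM in the overexpression courses, a log2 difference of -1.17 ± 0.16 (SE, adjusted p = 7.2e-04). The lowest, median and highest libraries had 4.18, 8.59 and 18.0 CPM in the knockdown and 10.4, 20.1 and 32.5 CPM in the overexpression line. Both knockdown libraries lay below both overexpression libraries in all 6 shared samples. As for HMOX1, the share of all genes that separate so often was not counted. The difference was -1.36 (adjusted p = 4.9e-05) without the unlabelled and 720 min libraries, and -0.84 (adjusted p = 0.93) in the unlabelled libraries alone.

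**Figure D1:**
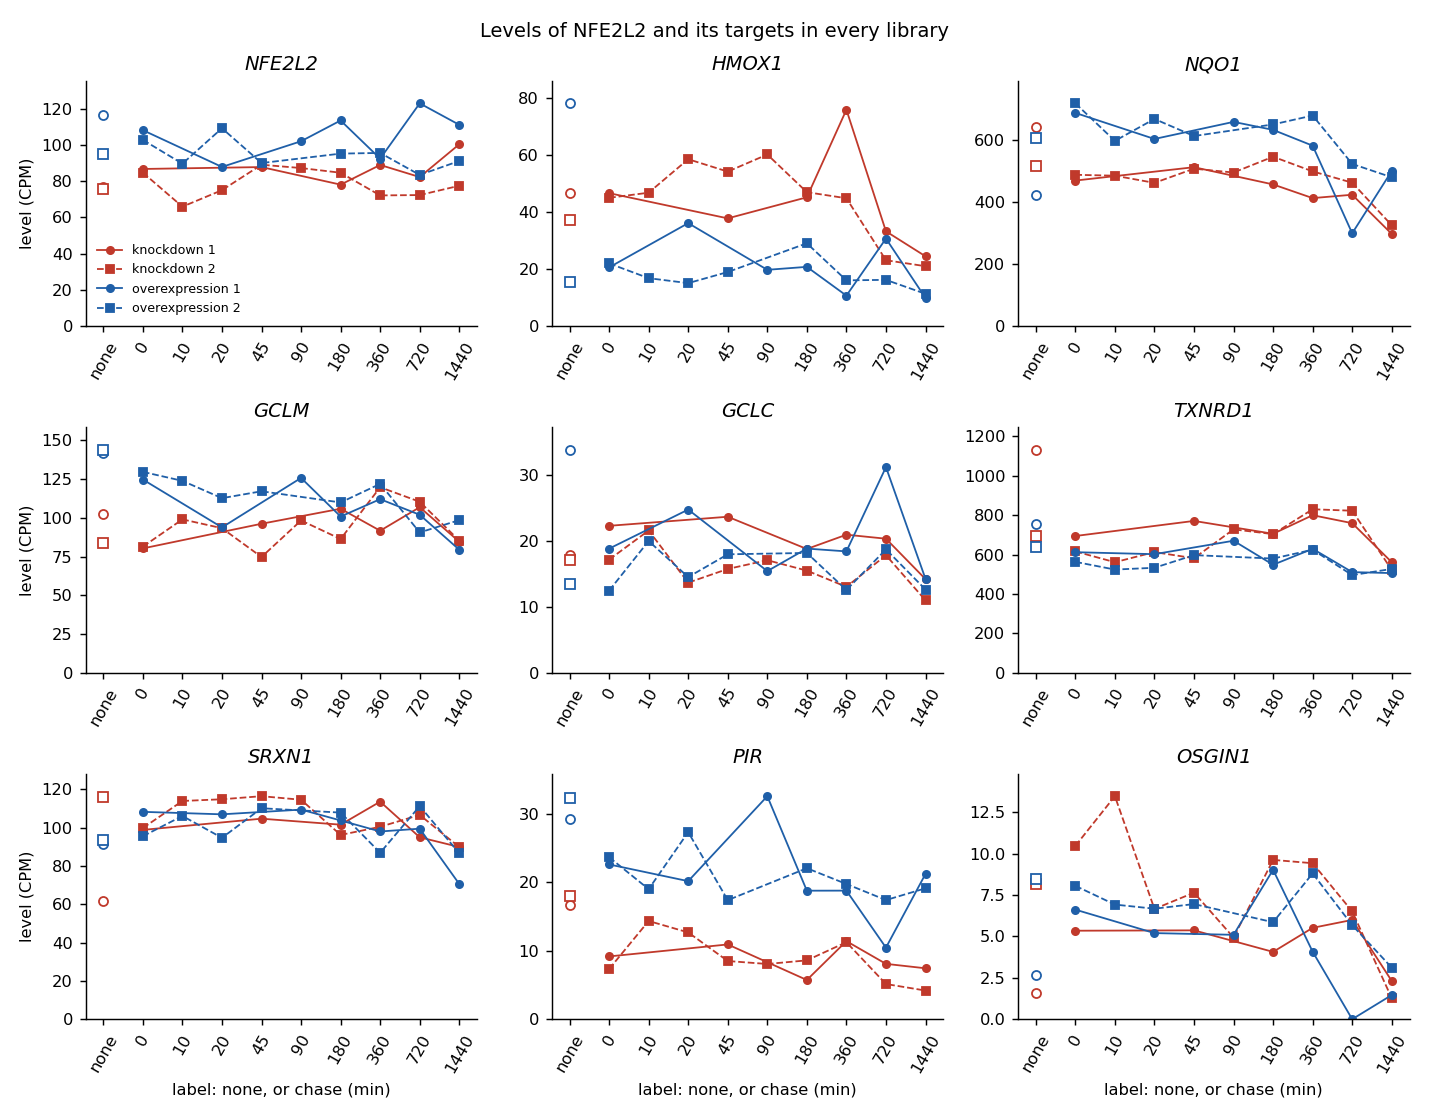
Level of each of the 9 genes in every library, in TMM-scaled CPM (each axis from 0), against the sample: unlabelled (none, open symbols), then minutes of chase. Red is the knockdown and blue the overexpression line, circles are course 1 and squares course 2, and the SRXN1 panel shows the interval shared with AL121758.1. At 0 min the lines do not overlap for HMOX1, PIR, NFE2L2, NQO1, GCLM and TXNRD1. HMOX1, NQO1, OSGIN1, TXNRD1, SRXN1 and PIR are lower in all 4 courses at 1440 min than at 0 min. The share of all genes that do either was not counted, so both describe the panels alone.

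NFE2L2 itself had 85.3 and 78.5 CPM in the knockdown courses and 110 and 94.4 CPM in the overexpression courses (log2 difference -0.32 ± 0.13 SE, adjusted p = 0.11). Single libraries ran from 65.9 over a median of 82.3 to 100 CPM in the knockdown and from 83.4 over 95.6 to 123 CPM in the overexpression line. Both knockdown libraries lay below both overexpression libraries in 5 of the 6 shared samples and overlapped them at 1440 min. These samples come from the same 2 courses per line, and how many of all genes separate so often was not counted. The order is a description and adds nothing to the test.

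NQO1, the quinone reductase that uses NAD(P)H to pass 2 electrons to quinones, had 445 and 480.0 CPM in the knockdown and 549 and 615 CPM in the overexpression courses (log2 difference -0.33 ± 0.12 SE, adjusted p = 0.079). TXNRD1, the cytosolic thioredoxin reductase, went the other way, with 761 and 699 CPM against 583 and 575 CPM (0.33 ± 0.12 SE, adjusted p = 0.066). Neither passed the main edgeR test over all shared samples. Both passed there with DESeq2 (adjusted p = 0.043 for NQO1) and in edgeR with the replicate number as a block, though the labels do not say what that number marks. With edgeR NQO1 also passed in the 0 min libraries alone (-0.55, adjusted p = 0.013), in the 1440 min libraries alone (-0.66, adjusted p = 0.016) and without the unlabelled and 720 min libraries (-0.50, adjusted p = 0.0033). NQO1 did not pass with RLE size factors (adjusted p = 0.081), without the expression filter (0.067) or without multimapped intervals (0.073). The unlabelled libraries alone gave NQO1 a difference of 0.16 (adjusted p = 0.99), opposite in sign. Leaving out a course gave NQO1 -0.41 to -0.23. For TXNRD1 all alternatives together ran from 0.065 to 0.40.

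GCLC and GCLM are the catalytic and modifier subunits of glutamate-cysteine ligase, the first and limiting step of glutathione synthesis. GCLC had 18.7 and 15.5 CPM in the knockdown and 20.9 and 15.1 CPM in the overexpression courses, and the lines overlapped in all 6 shared samples (log2 difference -0.070 ± 0.19 SE, adjusted p = 0.84). GCLM had 93.7 and 94.2 CPM against 108 and 116 CPM (-0.25 ± 0.12 SE, adjusted p = 0.17). The 0 min libraries held 80.2 and 81.4 CPM of GCLM in the knockdown and 125 and 130 CPM in the overexpression line (log2 difference -0.65, adjusted p = 0.0094, for these libraries alone). The unlabelled libraries held 102 and 83.5 CPM against 142 and 144 CPM (-0.63, adjusted p = 0.93). At 1440 min they held 84.5 and 85.3 CPM against 79.4 and 98.5 CPM and overlapped.

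SRXN1, sulfiredoxin, restores overoxidised peroxiredoxins. Its interval held 92.3 and 102 CPM in the knockdown and 95.8 and 98.8 CPM in the overexpression courses, a log2 difference of 0.00091 ± 0.12 (SE, adjusted p = 0.997). OSGIN1, an oxidative stress-induced growth inhibitor, was the least abundant of the 9, with 4.01 and 7.95 CPM against 4.41 and 6.71 CPM (0.11 ± 0.33 SE, adjusted p = 0.86). Its courses within a line differed more than the lines did.

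The second comparison asked whether s4U in the pulse, itself a modified nucleoside, changed the levels. None of the 9 passed the test between 0 min and unlabelled libraries (edgeR, 4 against 4 with the line as a covariate, 0% of 11827 genes called), nor did any with DESeq2. At an unadjusted p under 0.05 there was 1, PIR. PIR had 16.7 and 18.0 CPM unlabelled and 9.16 and 7.32 CPM at 0 min in the knockdown courses, and 29.2 and 32.3 CPM unlabelled and 22.6 and 23.6 CPM at 0 min in the overexpression courses. It was lower with label in all 4 courses, with a log2 difference of -0.73 ± 0.26 (SE, adjusted p = 0.89). GCLM (0.784 to 0.975 of the unlabelled level) and TXNRD1 (0.613 to 0.889) were also lower in 4 of 4 courses. The lowest ratio of each came from knockdown course 1, whose unlabelled library stands apart. That library held 1132 CPM of TXNRD1, against 693 CPM in the unlabelled library of knockdown course 2. The share of all genes lower in 4 of 4 courses was not counted, so these counts are a description. The differences of the other 8 ran from -0.50 (HMOX1) to 0.56 (OSGIN1), and both ends rest on the unlabelled libraries that stand apart. For HMOX1 overexpression course 1 had 0.264 of the unlabelled level and the other courses 1.00, 1.20 and 1.40, in the opposite direction. For OSGIN1 the first courses had 3.36 and 2.47 times the unlabelled level and the second courses 1.28 and 0.951. NQO1 differed by 0.10 ± 0.20 and NFE2L2 by 0.093 ± 0.18 (SE, adjusted p = 0.94 for both). Of the 4 unlabelled libraries 2 stand apart from their line, and 402 genes of the 11827 had an unadjusted p under 0.05.

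The third comparison followed the 9 levels through the chase, when s4U was withdrawn and the 3-hourly exchange of medium ended. The label, the uridine, the medium and the time in culture under doxycycline changed together, so their parts cannot be told apart. At 1440 min HMOX1 had fallen 2.02-fold, NQO1 1.49-fold and OSGIN1 3.79-fold from 0 min. The other 6 did not pass the test, and their log2 changes lay between -0.44 (GCLC) and -0.013 (NFE2L2), so that all 9 values were below 0. The 3 of 9 lower (33.3%) stand beside 2.26% of 11928 genes called lower (4.62% called in either direction), and the median log2 change was -0.35 for the 9 and 0.0035 for all genes. Since the 9 were chosen with earlier results of these data known, these shares describe them and test nothing. The test was edgeR's on 4 against 4 libraries with the line as a covariate.

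HMOX1 stood at 46.7 and 45.1 CPM in the knockdown and 20.7 and 22.1 CPM in the overexpression courses at 0 min. At 1440 min it had 24.6 and 21.1 CPM and 9.96 and 11.4 CPM in the same order. Each of the 4 courses thus ended at 0.468 to 0.526 of its 0 min level, a log2 change of -1.01 ± 0.16 (SE, adjusted p = 2.6e-04). NQO1 stood at 470.1 and 489 CPM in the knockdown and 688 and 719 CPM in the overexpression courses at 0 min. At 1440 min it had 298 and 326 CPM and 501 and 481 CPM, or 0.634 to 0.728 of the start (-0.58 ± 0.10 SE, adjusted p = 4.9e-04). Within each line the 2 times did not overlap for either gene, but how many of all genes do the same was not counted.

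OSGIN1 stood at 5.35 and 10.5 CPM in the knockdown and 6.62 and 8.06 CPM in the overexpression courses at 0 min and at 2.31 and 1.27 CPM and 1.46 and 3.12 CPM at 1440 min. All 4 values at 1440 min lay below all 4 at 0 min, an order that was not counted over all genes. The log2 change was -1.92 ± 0.40 (SE, edgeR adjusted p = 0.0050). Without knockdown course 2, whose ratio of 0.121 was the lowest, the change was -1.53 and no longer passed the test (adjusted p = 0.10). The 720 min library of overexpression course 1 held no OSGIN1 read.

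**Figure D2:**
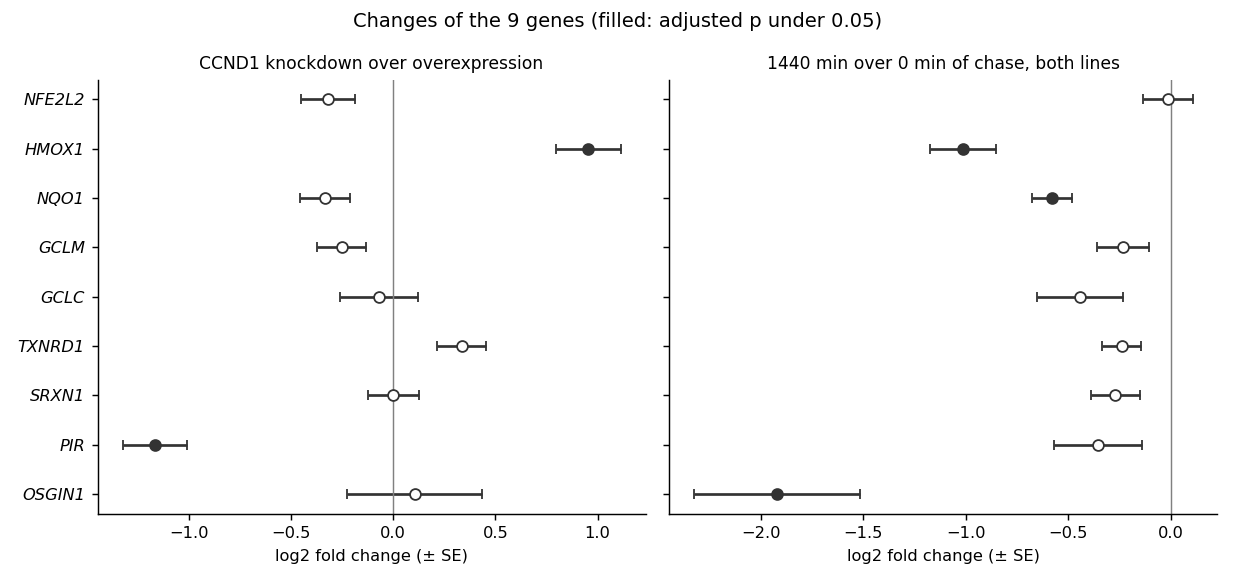
Log2 fold change of the 9 genes between the lines (left, knockdown over overexpression, 2 courses each) and over the chase (right, 1440 over 0 min, 4 libraries each), with bars of 1 standard error of the fit. Filled points passed an adjusted p of 0.05 in edgeR: HMOX1 (0.95) and PIR (-1.17) between the lines, and HMOX1 (-1.01), NQO1 (-0.58) and OSGIN1 (-1.92) over the chase.

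The factor itself did not share this course. NFE2L2 had 86.7, 84.7, 108 and 103 CPM at 0 min in knockdown courses 1 and 2 and overexpression courses 1 and 2, and 100, 77.5, 111 and 91.1 CPM at 1440 min (log2 change -0.013 ± 0.12 SE, adjusted p = 0.98). It was lower at 1440 min in 2 of 4 courses. TXNRD1 and the SRXN1 interval were lower in 4 of 4 courses but by less, to 0.808 to 0.936 and 0.652 to 0.910 of the start, with log2 changes of -0.24 ± 0.10 and -0.27 ± 0.12 (SE, adjusted p = 0.17 and 0.21). PIR was also lower in 4 of 4 courses (-0.35 ± 0.21 SE, adjusted p = 0.41). GCLC was lower in 3 of 4 courses (-0.44 ± 0.21 SE, adjusted p = 0.26) and passed the test when all libraries of 0 to 45 min served as the start (-0.59, adjusted p = 0.046). GCLM was lower in 2 of 4 courses (-0.23 ± 0.13 SE, adjusted p = 0.36), both of the overexpression line. The share of all genes lower in 4 of 4 courses at 1440 min was not counted.

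None of the 9 passed the test at 180, 360 or 720 min against the same 0 min libraries, by edgeR or DESeq2, and none had an unadjusted p under 0.05 at these times. Over all genes 0.713%, 0.75% and 0.0507% were called at the 3 times. The changes of the 9 lay between -0.19 and 0.11 at 180 min, -0.14 and 0.21 at 360 min, and -0.85 and 0.32 at 720 min on the log2 scale. TXNRD1 was higher at 360 min than at 0 min in 4 of 4 courses (1.03 to 1.35 of the start, adjusted p = 0.58), with 800 and 830.1 CPM in the knockdown and 629 and 625 CPM in the overexpression courses. How many of all genes were higher in 4 of 4 courses was not counted. At 720 min NQO1 was at 0.903, 0.948 and 0.728 of the start in 3 courses and at 0.436 in overexpression course 1, whose library stands apart (-0.44 ± 0.20 SE, adjusted p = 0.59). PIR was at 0.882, 0.701 and 0.735 in the same 3 courses and at 0.463 in that one (-0.53 ± 0.26 SE, adjusted p = 0.61). HMOX1 at 360 min ran from 10.8 CPM in overexpression course 1 to 76.0 CPM in knockdown course 1, the widest spread of the 9 at that time relative to 0 min (0.521 to 1.63).

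The change from 0 to 1440 min was then compared between the lines. No member's change differed past the threshold (interaction term, 0.0163% of 12281 genes called), nor with DESeq2. The difference of log2 changes, knockdown minus overexpression, was -0.023 ± 0.33 for HMOX1, -0.12 ± 0.20 for NQO1 and -0.47 ± 0.78 for OSGIN1 (SE, adjusted p = 1.00 for each). GCLM had the lowest p of the 9, with a difference of 0.57 ± 0.24 (SE, unadjusted p = 0.023, adjusted p = 0.81). The same test at 180, 360 and 720 min and for the label also called none of the 9 and no gene at all. Among them HMOX1 at 360 min had the smallest p, with a difference of 1.06 (edgeR, unadjusted p = 0.0091, adjusted p = 0.84), and GCLM had unadjusted p of 0.032 at 180 min and 0.028 at 720 min.

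The wider pathway was read from 57 further genes in 7 lists, of which 47 to 54 were tested in a given comparison. These lists too were chosen with earlier results of these data known, so their shares are a description. Between the lines 5 were higher and 8 lower in the knockdown courses of 54 tested (24.1%, against 21.9% of all genes), and without the unlabelled and 720 min libraries 10 were higher and 9 lower of 51 (37.3%, against 30.9%). At 1440 min 9 were lower and 1 higher of 48 (20.8% called and 18.8% lower, against 4.62% and 2.26% of all genes), and the median log2 change was -0.17. The single riser stands beside 2.36% of all genes called higher. At 180 min 2 were higher and 1 lower of 48 (0.638% and 0.0755% of all genes), at 360 min 1 was higher and 2 were lower of 49 (0.623% and 0.126%). At 720 min 47 and for the label 49 did not pass, with median log2 changes of -0.19 and 0.096.

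Among regulators and partners of NRF2 1 gene was higher, 1 was lower and 8 did not pass between the lines. SQSTM1, the p62 autophagy receptor that binds KEAP1 and is itself an NRF2 target, had 885 and 894 CPM in the knockdown and 398 and 448 CPM in the overexpression courses (log2 difference 1.07 ± 0.12 SE, adjusted p = 2.7e-04). MAFG was lower (-0.46 ± 0.13 SE, adjusted p = 0.030). KEAP1 had 58.5 and 56.4 CPM against 70.1 and 75.9 CPM (-0.35 ± 0.13 SE, adjusted p = 0.078), and passed without the unlabelled and 720 min libraries (-0.34, adjusted p = 0.029). BACH1, the repressor that competes with NRF2 for its sites, had 23.2 and 18.2 CPM against 27.5 and 23.5 CPM (-0.30 ± 0.17 SE, adjusted p = 0.24). MAFF rose at 180 min by 1.40 ± 0.15 on the log2 scale (SE, adjusted p = 4.2e-06), from 28.0, 32.2, 68.2 and 55.1 CPM to 103, 115, 109 and 131 CPM, and was still higher at 360 min (0.98 ± 0.20 SE, adjusted p = 0.014). MAFK rose at 180 min (0.71 ± 0.11 SE, adjusted p = 4.9e-04). SQSTM1 fell by 1440 min from 1291, 1115, 526 and 504 CPM to 769, 546, 318 and 339 CPM (-0.77 ± 0.11 SE, adjusted p = 8.8e-05), while KEAP1 (0.068, adjusted p = 0.85) and BACH1 (-0.055, adjusted p = 0.92) changed by less than their SE of 0.13 and 0.18.

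Of 15 genes of glutathione supply, use and export 1 was higher, 3 were lower and 11 did not pass between the lines. SLC7A11, the cystine carrier of system xc-, had 140.2 and 148 CPM in the knockdown and 291 and 307 CPM in the overexpression courses (log2 difference -1.06 ± 0.12 SE, adjusted p = 2.7e-04). GSR, glutathione reductase, was lower too (-0.82 ± 0.13 SE, adjusted p = 0.0016), and MGST1, a microsomal glutathione transferase, higher (0.64 ± 0.12 SE, adjusted p = 0.0047). At 1440 min 2 of 13 were lower and none was higher, and these 2 form the same carrier. SLC7A11 fell from 179, 203, 346 and 349 CPM to 61.2, 64.4, 163 and 199 CPM (-1.28 ± 0.13 SE, adjusted p = 1.1e-06), and SLC3A2, its heavy chain, from 282, 263, 273 and 307 CPM to 127, 132, 143 and 198 CPM (-0.93 ± 0.12 SE, adjusted p = 1.8e-05). The values at 0 and 1440 min did not overlap within a line for either gene, though the share of all genes that do the same was not counted. SLC7A11 at 720 min was at -0.80 ± 0.17 (SE, adjusted p = 0.16) and at 360 min at -0.30 ± 0.14 (SE, adjusted p = 0.48).

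**Figure D3:**
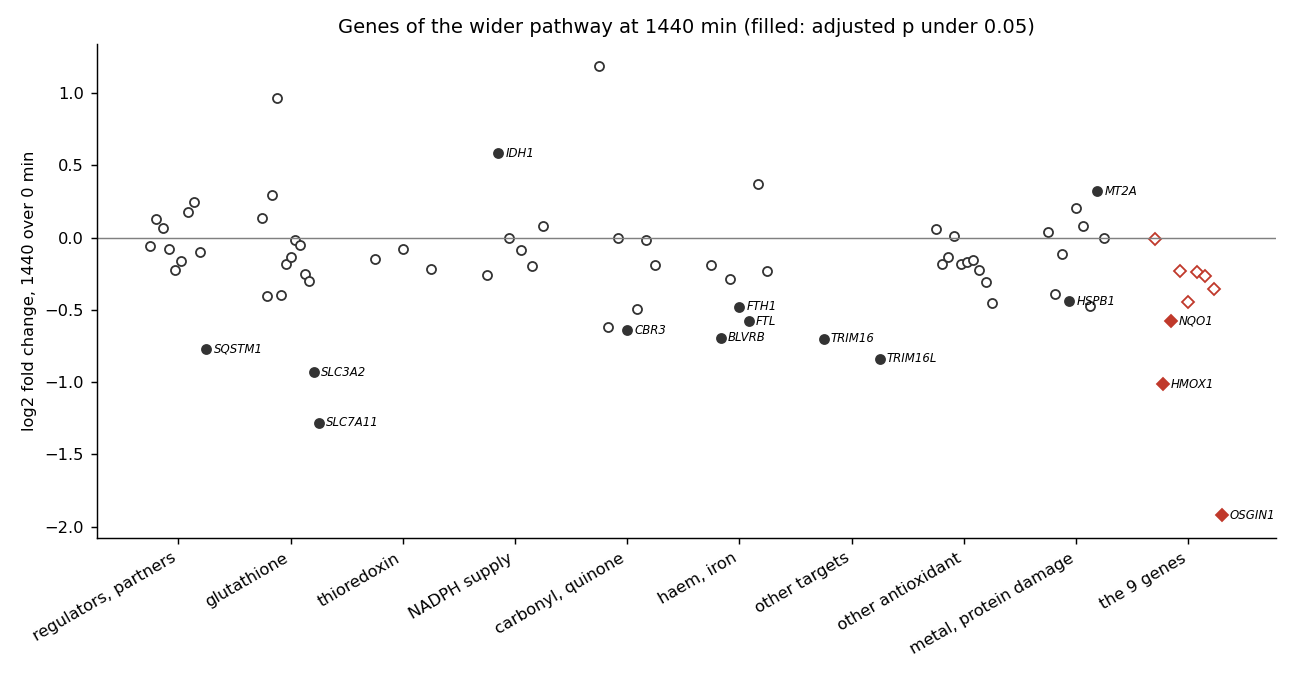
Log2 fold change from 0 to 1440 min of chase for the tested genes of the wider pathway lists and of 2 lists outside the usual NRF2 targets (circles), and for the 9 genes (red diamonds, right). Filled symbols passed an adjusted p of 0.05 in edgeR and are named. SLC7A11 (-1.28), SLC3A2 (-0.93) and SQSTM1 (-0.77) lie lowest among the named genes of their lists, and OSGIN1 (-1.92) lowest of all.

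In haem and iron handling 1 of 7 genes passed between the lines and 3 over the chase, among them both ferritin chains. FTH1 was higher in the knockdown courses (log2 difference 0.53 ± 0.13 SE, adjusted p = 0.017) and the other 6 tested genes did not pass. At 1440 min FTH1 (-0.48 ± 0.08 SE, adjusted p = 7.9e-04), FTL (-0.58 ± 0.09 SE, adjusted p = 1.6e-04) and BLVRB, a biliverdin reductase (-0.69 ± 0.19 SE, adjusted p = 0.037), were lower, none was higher and 4 did not pass. Of the reads of FTH1 79.7% were multimapped, which its processed copies may share, so its level is uncertain; of those of FTL 2.18% were.

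Among carbonyl and quinone reductases and related enzymes CBR3, carbonyl reductase 3, was the gene called most often. It had 15.5 and 16.2 CPM in the knockdown and 32.1 and 31.0 CPM in the overexpression courses (log2 difference -0.99 ± 0.14 SE, adjusted p = 9.4e-04) and fell by 180 min (-0.66 ± 0.16 SE, adjusted p = 0.048), being lower at 360 min (-0.80 ± 0.17 SE, adjusted p = 0.023) and at 1440 min (-0.64 ± 0.16 SE, adjusted p = 0.019) as well. UGDH was higher in the knockdown courses (0.52 ± 0.15 SE, adjusted p = 0.035), and the other 9 of 11 did not pass there. In NADPH supply TKT (-0.89 ± 0.27 SE, adjusted p = 0.040) and PGD (-0.47 ± 0.12 SE, adjusted p = 0.021) were lower in the knockdown courses and 4 genes did not pass. TKT rested on overexpression course 1, at 541 CPM against 254 CPM in course 2, and no longer passed without the unlabelled and 720 min libraries (-0.34, adjusted p = 0.070). Of the reads of PGD 30.5% were multimapped. IDH1 rose at 1440 min (0.58 ± 0.16 SE, adjusted p = 0.029) and the other 5 did not pass.

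Of 3 thioredoxin and peroxiredoxin genes PRDX6 was higher in the knockdown courses (log2 difference 0.40 ± 0.12 SE, adjusted p = 0.033), and none passed at 1440 min. The remaining reported targets were TRIM16 and TRIM16L, paralogs of closely alike sequence, of whose reads 0.183% and 0.0170% were multimapped. TRIM16 was lower in the knockdown courses (-0.48 ± 0.14 SE, adjusted p = 0.034) and at 1440 min (-0.70 ± 0.18 SE, adjusted p = 0.023). TRIM16L was lower at 360 min (-1.07 ± 0.18 SE, adjusted p = 0.0027) and at 1440 min (-0.84 ± 0.20 SE, adjusted p = 0.015).

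The fourth comparison turned to decay. At 0 min the T>C rate of the 9 genes, averaged over courses, placed TXNRD1 (1.18%), PIR (1.13%) and NFE2L2 (1.12%) at percentiles 96.7, 93.8 and 92.6 of 8982 genes, whose median was 0.854%. SRXN1 (0.968%) and NQO1 (0.933%) were at percentiles 70.3 and 63.8, GCLM (0.781%) at 38.9, HMOX1 (0.723%) at 31.5 and GCLC (0.384%) at 6.75. Ranked genes had at least 1000 covered T bases in every 0 min and every unlabelled library. OSGIN1 had 2240 to 5855 at 0 min. It was not ranked because the unlabelled libraries of overexpression course 1 and knockdown course 1 held 414 and 671. The rate mixes how much of a transcript was made during the pulse with how readily its T bases are read as converted, and the ranks are a description. In the unlabelled libraries, whose rates were subtracted, TXNRD1 had 0.0187% to 0.0305%, while NFE2L2 reached 0.114% in overexpression course 1 and PIR 0.186% in overexpression course 2.

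The label was then lost at different speeds. After 360 min NFE2L2 kept 4.22% to 22.6% of its 0 min rate over the 4 courses. The lowest of these, in overexpression course 1, came from a rate of 0.160% at 360 min from which the unlabelled 0.114% was taken. At the same time the SRXN1 interval kept 7.32% to 31.7%, TXNRD1 23.1% to 41.6%, GCLM 16.4% to 48.0% and NQO1 77.6% to 93.7%. For all 3′ UTR reads together the range was 51.0% to 59.7%. After 1440 min NQO1 still kept 17.8% to 31.6%, while all reads together kept 4.16% to 9.87% and the other 4 named here at most 7.07%.

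**Figure D4:**
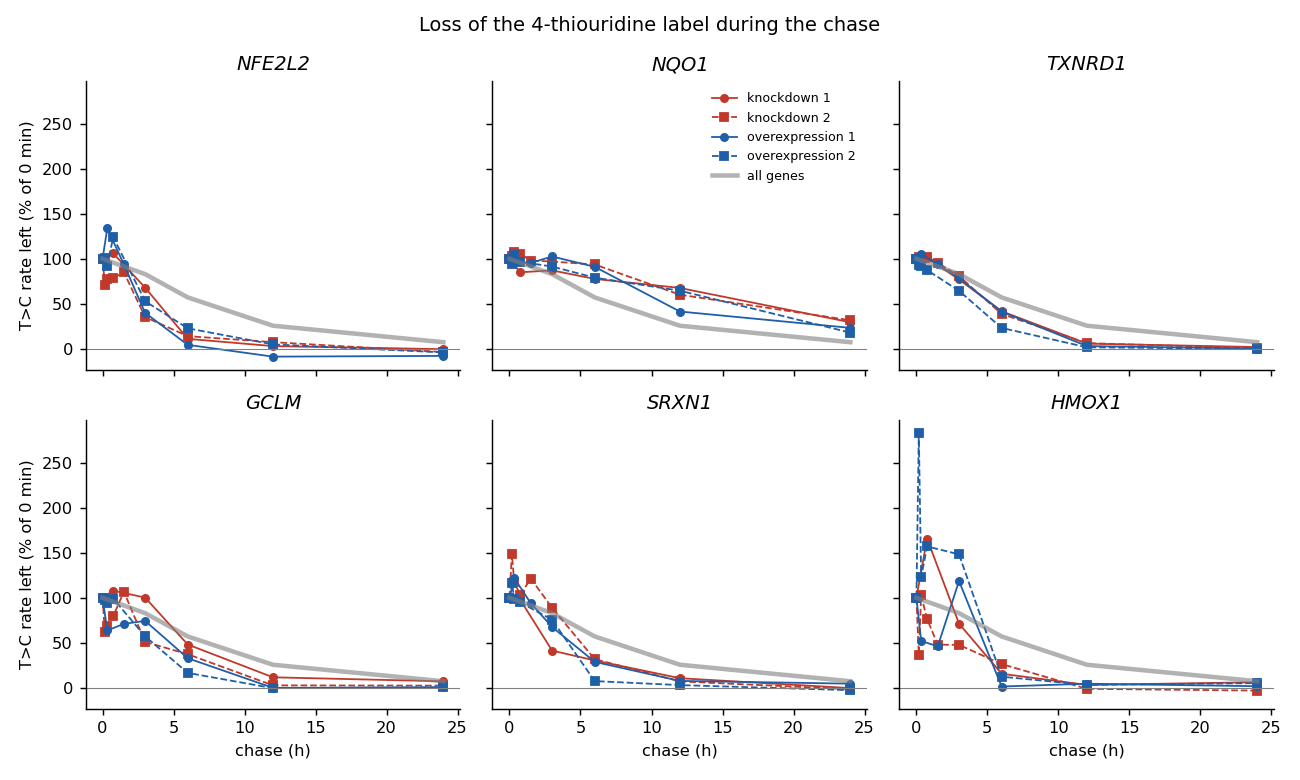
T>C rate left in 6 of the genes, as a percentage of the 0 min rate of the same course after subtraction of the unlabelled library, against hours of chase. Red is the knockdown and blue the overexpression line, circles are course 1 and squares course 2, and the grey line is the rate of all 3′ UTR reads together at the 5 shared times (median of 4 courses). NQO1 lies above the grey line from 6 h on, where NFE2L2, TXNRD1, GCLM, SRXN1 and HMOX1 lie below it, and HMOX1 scatters widely in the first 3 h.

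Half-lives came from the fit of exp(-Kt) from 0 min to these curves, with negative corrected rates set to 0, kept where R2 was at least 0.6. All 3′ UTR reads together kept 82.6% to 83.2% of the rate at 180 min and 51.0% to 59.7% at 360 min. A single exponential from 0 min does not follow such a slow start. NQO1 had half-lives of 16.0 and 18.1 h (knockdown courses) and of 13.5 and 14.1 h (overexpression courses), and its mean of 15.4 h was at percentile 97.95 of the 3315 genes with a value in all 4 courses. In each course 2278 to 4395 fits fell under an R2 of 0.6, and their genes are not ranked. The percentiles given here thus hold among the kept genes alone. NFE2L2 was short-lived, with 3.33 and 2.38 h against 2.79 and 3.52 h (mean 3.01 h, percentile 12.8). TXNRD1 had 4.86 and 5.18 h against 4.96 and 3.35 h (percentile 44.1), GCLM 6.51 and 3.81 h against 3.74 and 3.07 h (percentile 37.8), and SRXN1 3.17 and 5.87 h against 4.40 and 3.41 h (percentile 36.3). The median gene of a course had 4.11 to 5.05 h. These half-lives of the T>C rate assume a steady level, which HMOX1, NQO1 and OSGIN1 did not keep over the chase.

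The remaining genes gave half-lives in only some courses. HMOX1 had 4.30 and 2.18 h in the knockdown courses and no fit kept in the overexpression courses, where R2 was 0.466 and 0.283. PIR had 4.32 h in knockdown course 1 and 8.31 and 4.79 h in the overexpression courses, and GCLC 5.22 h in knockdown course 1 alone. OSGIN1 had no fit kept in any course.

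**Figure D5:**
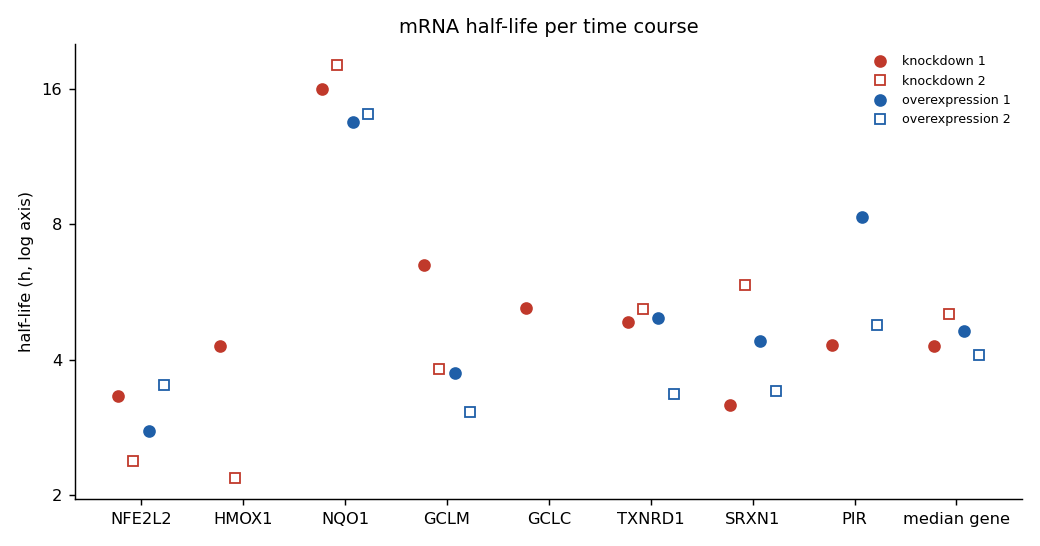
Half-life in hours (log axis) of 8 of the 9 genes and the median gene in each time course, with red for the knockdown and blue for the overexpression line and filled circles for course 1 and open squares for course 2; fits with R2 under 0.6 are left out, which removes OSGIN1. NQO1 lies between 13.5 and 18.1 h in all 4 courses, and the other points lie between 2.18 and 8.31 h.

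No half-life differed past the threshold between the lines for the 5 genes with values in all 4 courses (limma on log2 half-life, 2 courses against 2). Over all 3315 genes 0% were called, with 256 at an unadjusted p under 0.05 and 0 of these among the 5. The log2 differences, knockdown over overexpression, were 0.56 ± 0.37 for GCLM, 0.30 ± 0.29 for NQO1, 0.30 ± 0.33 for TXNRD1, 0.16 ± 0.39 for SRXN1 and -0.15 ± 0.33 for NFE2L2 (SE, adjusted p of 0.67 to 0.90), beside a median of 0.20 for all genes. With errors of this size a difference of the order of the larger of these values was not detectable. For NQO1 neither knockdown half-life fell within the range of the overexpression half-lives, but the difference was about the size of its SE. The median of all genes lay in the same direction, and how many of the 3315 genes show such an order was not counted.

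Across the 34 libraries the levels of the 9 genes did not run as 1 group. Pearson's r of log2 CPM between HMOX1 and TXNRD1 was 0.55, between NQO1 and PIR 0.66 and between GCLM and PIR 0.55, while NFE2L2 and HMOX1 had -0.35, HMOX1 and NQO1 -0.31 and GCLC and GCLM 0.064. The points share 2 lines and 4 courses, so these values describe the libraries and carry no test. The genes most like HMOX1 among 8397 of at least 10 CPM were ANKRD1 (0.88), OXTR (0.88) and INHBA (0.87). Those most like NQO1 were TPM4 (0.86), PLIN2 (0.85) and LSM3 (0.81), and those most like PIR were CENPH (0.87), SERTAD4 (0.85) and TMSB15A (0.84). NFE2L2 ran closest to ANKRD28 (0.83), ZBTB44 (0.82) and SMC1A (0.80), and TXNRD1 to NEK7 (0.84), GFPT1 (0.83) and FYTTD1 (0.82). GCLM (USP37, 0.73, PRPF4, 0.69, and PAQR4, 0.66), GCLC (CHMP4B, 0.73, ATF5, 0.73, and THUMPD2, 0.725) and the SRXN1 interval (RNF121, 0.72, PQLC2, 0.71, and NKIRAS2, 0.71) had weaker nearest genes, and OSGIN1 was below the 10 CPM limit.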

How the data were processed

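Libraries of 3′ ends, made from 75 ng RNA each, were read for 100 nt. The authors' sequencing service counted reads with SLAMdunk 0.4.3 on hg38 in 71668 3′ UTR intervals by strand, from an annotation release not given in the sources used here. The deposited tables hold raw counts (reads, multimapped reads, covered T bases, T>C conversions), a deposited CPM per mapped read, used only to recover mapped reads, and a deposited conversion rate, a fraction equal to conversions over covered T bases.

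Intervals of a gene were summed. Intervals shared by genes (1167, with 2.28% to 2.73% of reads) were dropped, and that of SRXN1 was kept as a row of its own. CPM here is relative to 3′ UTR reads (61.5% to 75.5% of mapped reads), TMM-scaled. edgeR 4.0.16 tested abundance, and DESeq2 1.42.0 was an alternative. Half-lives followed the study's methods in part (exponential fit, at least 1 CPM and 4 time points), without intervals over 10% multimapped (7814), and were tested with limma 3.58.1. The study also left out time points with too few labelled genes and samples lacking a valid first time point. Those steps were not run here, so the half-lives need not equal the study's. The scripts were tested on simulated data. The T>C rates behind the half-lives have Wilson 95% intervals, which cover counting error only, since reads carry no molecular identifiers.

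Deviations of 0 min and unlabelled libraries of a course correlated weakly, at r of 0.16 (knockdown) and 0.10 (overexpression). The test of the label had the line alone as a covariate, so it made no use of this pairing. With the 0 min libraries, those of 1440 min correlated at 0.23 (knockdown) and 0.030 (overexpression). Those of 180 min correlated with them at 0.19 (knockdown) and -0.0039 (overexpression). Pairs at the other shared chase times were not above 0.1 in either line, and pairs between the lines numbered only 2. The members, the lists and the rule naming up to 3 called genes per list and comparison were chosen with earlier results of these data known. The 9 members, KEAP1, BACH1 and SLC7A11 are always named, as are the 3 genes most like each member. ABCB6 had only intervals shared with other genes and was not measured.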

Additional observations from a re-analysis of the deposited data

How the results depend on the processing

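Of 272 values of single genes recomputed under alternatives, 233 kept direction and side of the threshold, 2 lost and 12 gained a call, and 25 turned sign, of which only that of HMOX1 concerned a called gene. Between the lines 2 of the 9 genes were called in the main test, beside 2886 of all 13166 genes. With DESeq2 4 were called, beside 3598 of 13166, and in the 0 min libraries alone 4, beside 1870 of 11806. The unlabelled libraries alone called 0, beside 4 of 11614, and the replicate number as a block 6, beside 5249 of 13166. The labels do not say whether a number marks anything shared by the lines, and with 2 pairs (r of 0.335) the numbers were not taken as pairs. The block added NFE2L2, NQO1, GCLM and TXNRD1 and brought 5249 genes past the threshold against 2886. Over the chase the block changed no member's call. In the unlabelled libraries alone the log2 difference between the lines turned to -0.18 for HMOX1, 0.16 for NQO1, -0.065 for SRXN1 and -0.19 for OSGIN1. GCLC turned to 0.063 without the unlabelled and 720 min libraries and to 0.34 at 0 min alone, SRXN1 to -0.00079 with the block and -0.031 at 0 min alone, and OSGIN1 to -0.35 at 1440 min alone. Leaving out a course gave -0.27 to 0.18 for GCLC, -0.072 to 0.076 for SRXN1 and -0.47 to 0.52 for OSGIN1. Over the chase NFE2L2 turned to 0.061 against 0 to 45 min and ran from -0.091 to 0.036 without a course. The half-life difference of NFE2L2 turned to 0.064 with the 5 shared times, 0.22 from 180 min on and 0.31 on the log scale, and ran from -0.39 to 0.089 without a course, as that of SRXN1 did from -0.29 to 0.60. The cause was not tested. Genes called ran over the alternatives from 4 to 5249 between the lines, 57 to 155 (85 in the main test) at 180 min, 26 to 209 (89) at 360 min, 0 to 250 (6) at 720 min, 281 to 863 (551) at 1440 min, 2 to 19 (2) for the line difference and 0 to 85 (0) for the label. The fit without the 720 min library of overexpression course 1 and the line differences of the label and of the earlier chase times were chosen after seeing the data. With 2 courses per line, and 0 to 1014 reads per library for OSGIN1 and PIR, smaller changes were not detectable.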

Other observations

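In 2 lists outside the usual NRF2 targets, 9 of the metal and protein-damage genes were tested between the lines. Of these 3 were higher and 3 lower in the knockdown courses, beside 11.2% and 10.7% of all genes. MT2A, a metallothionein, had 14365 and 15474 CPM in the knockdown and 6839 and 8230.0 CPM in the overexpression courses (log2 difference 0.99 ± 0.12 SE, edgeR adjusted p = 5.1e-04), and MT1X was higher as well (1.08 ± 0.17 SE, adjusted p = 0.0018), with 23.2% of its reads multimapped. HSPA1B, an inducible HSP70 gene with a near-identical neighbour in HSPA1A, was lower (-0.72 ± 0.19 SE, adjusted p = 0.024). At 1440 min MT2A rose (0.32 ± 0.07 SE, adjusted p = 0.012), HSPB1, a small heat shock protein, fell (-0.44 ± 0.09 SE, adjusted p = 0.0056) and 7 did not pass. Of 10 antioxidant enzymes that are not usual NRF2 targets PRDX5 (0.61 ± 0.19 SE, adjusted p = 0.041) and SOD2 (0.47 ± 0.12 SE, adjusted p = 0.020, with 34.5% of reads multimapped) were higher in the knockdown courses, 8 did not pass, and none passed at 1440 min.

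The 3 libraries that stand apart from their lines held the extremes of several of the 9 genes. The unlabelled library of knockdown course 1 had the highest TXNRD1 (1132 CPM, against 522 to 830.1 CPM in the labelled libraries of that line) and the lowest SRXN1 interval (61.8 CPM, against 89.9 to 116 CPM). The unlabelled library of overexpression course 1 had the highest HMOX1 (78.2 CPM) and GCLC (33.8 CPM) of its line, and the 720 min library of that course the lowest NQO1 (300.1 CPM) and PIR (10.4 CPM) of its line.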
